A study of Rattus norvegicus with 10 samples.

Results

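Complement components and regulators were followed in the left ventricle of male Sprague-Dawley rats on day 3 after gene transfer. The genes are C1qa, C1qb, C1qc, C1s, C2, C3, Cfb, Serping1 and Clu, and a probe set counted as a member where the array's annotation names 1 of these genes and no other. That gave 7 genes, read by 8 probe sets, out of 14217 genes named alone on one of the 31042 probe sets that are not controls. C2 and Cfb, neighbours in the genome, shared all 4 of their probe sets with each other, so neither could be read by itself and neither is described here. In one group of 5 samples the rats had received the gene for GATA-4, which binds DNA through zinc fingers and drives heart muscle genes, and in the other group of 5 samples the bacterial gene LacZ, which serves as a control for the transfer itself. All animals weighed 250 to 300 g, and every ventricle, the controls included, had been through a gene transfer. The labels give neither the vehicle, nor the injection site, nor the age of the rats, and do not say which heart cells took up the gene. The labels do not name an animal for each sample, so p-values measure the spread between these samples.

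Complement is a cascade of plasma and tissue proteins that tags particles, cell debris and microbes and calls in leukocytes. In the classical pathway C1q, built from the chains encoded by C1qa, C1qb and C1qc, binds its target. With it travel the proteases C1r and C1s, through which the next components are cleaved. C2 and factor B (Cfb) supply the proteases that cleave C3, the central component, whose fragments coat surfaces and signal through receptors. Serping1 encodes the C1 inhibitor, which blocks C1r and C1s, and Clu encodes clusterin, a secreted chaperone that also restrains the terminal membrane attack complex. Most C3 in plasma comes from the liver, while C1q is made mainly by macrophages.

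Signals are given as log2 of the probe set intensity after quantile normalization, and differences are GATA-4 minus LacZ on that scale. A gene is said to have risen or fallen where its Benjamini-Hochberg adjusted p in limma, over all 18625 probe sets tested, lay under 0.05. Before normalization GATA-4 array 1 stood apart as dim, with a trimmed mean intensity of 142. Its 4 group mates had 249 to 329, and the LacZ arrays 249 to 314. For Gata4 itself the GATA-4 group averaged 11.44 ± 0.14 and the LacZ group 10.65 ± 0.13 (SD, n = 5 each), a rise of 0.79 (limma, adjusted p = 0.00131). The contractile genes of heart muscle Myh6, Tnnt2 and Tnni3, which mark the labelled tissue, read 13.49, 13.65 and 13.46 with GATA-4 and 13.51, 13.65 and 13.41 with LacZ.

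Of the 8 complement probe sets, all of which passed the filter on mean signal, 2 rose after GATA-4 transfer and none fell. These were C1qb (1.38-fold) and the brighter probe set of Clu (1.12-fold under quantile normalization, and a difference of -0.056 under median centring without GATA-4 array 1). Over all probe sets 988 changed, or 5.30%, with 566 higher (3.04%) and 422 lower (2.27%), a split of 322 higher and 401 lower under median centring. At an unadjusted p under 0.05 in limma 5 of the 8 complement probe sets were higher and 0 lower with GATA-4, where 10.4% of all probe sets were higher and 11.7% lower. By the brightest probe set of each gene 6 of the 7 genes had a positive difference (5 under median centring without GATA-4 array 1), and the median of the 7 was 0.31, where the median of all 10688 genes was -0.017. The size of the differences ranged from -0.07 for C1s to 0.68 for C3, so none reached 2-fold. Both calls depended on which arrays were fitted. C1qb was lost without any 1 of LacZ arrays 1, 2, 3 and 4 or GATA-4 arrays 2, 4 and 5 (adjusted p from 0.0212 to 0.115 over all 10 omissions). Clu was lost without any 1 of the 5 LacZ arrays or GATA-4 arrays 3, 4 and 5 (0.0203 to 0.132). Without GATA-4 array 1 the complement probe sets called were 4, namely C1qb, C3, Clu and Serping1. The count over all 18625 probe sets was then 2849, against 988 with every array.

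**Figure D1:**
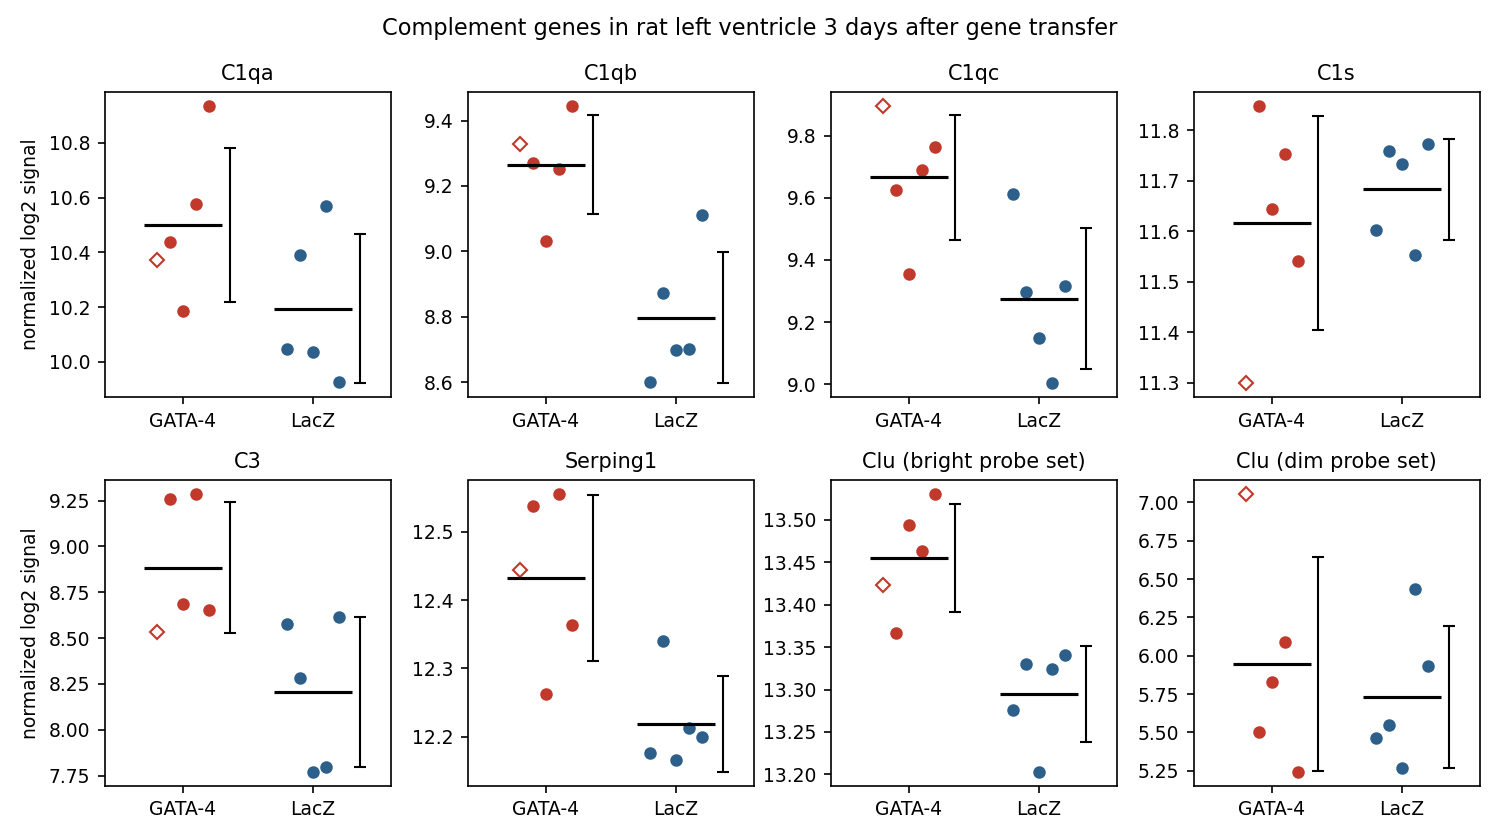
Normalized log2 signal (vertical axes, each with its own range) of the 8 complement probe sets on the 5 GATA-4 arrays and the 5 LacZ arrays. Points are arrays, the open diamond is GATA-4 array 1, lines are means and bars are SDs. The 2 groups separate without overlap only in the brighter Clu probe set, whose difference is -0.056 instead of 0.16 under median centring without GATA-4 array 1.

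The genes for the 3 chains of C1q lie side by side on rat chromosome 5 in RefSeq's GRCr8 assembly, in the order C1qb, C1qc, C1qa. C1qb, the chain with the widest of the 3 differences, read 9.33, 9.27, 9.03, 9.25 and 9.44 on GATA-4 arrays 1 to 5, against 8.60, 8.87, 8.70, 8.70 and 9.11 on LacZ arrays 1 to 5. All GATA-4 arrays but the third lay above every LacZ array, and the overlap came from the 9.03 of GATA-4 array 3 and the 9.11 of LacZ array 5. GATA-4 arrays averaged 9.27 ± 0.15 and LacZ arrays 8.80 ± 0.20 (SD, n = 5 each), a difference of 0.47 (SE 0.12; limma, adjusted p = 0.0392). The exact two-sided permutation p over all assignments of the arrays was 0.0159, the smallest that this design allows being 0.00794. Over all the alternatives the adjusted p of C1qb in limma ran from 0.00981 to 0.993, and the difference was positive in each of the 21.

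C1qc read 9.90, 9.63, 9.35, 9.69 and 9.76 with GATA-4, against 9.61, 9.30, 9.15, 9.00 and 9.32 with LacZ. Again GATA-4 array 3 alone fell among the LacZ arrays, the highest of which, LacZ array 1, stood at 9.61. The difference of 0.39 (SE 0.13) did not pass (adjusted p = 0.0992 in limma), with a 95% interval of 0.11 to 0.67. C1qa read 10.37, 10.44, 10.19, 10.58 and 10.93 with GATA-4, against 10.05, 10.39, 10.04, 10.57 and 9.93 with LacZ. Here the groups overlapped more, since LacZ arrays 2 and 4 reached the middle of the GATA-4 arrays. Its difference was 0.31 (SE 0.15), its adjusted p 0.254 in limma and its interval -0.02 to 0.63. The 3 intervals overlap, and whether the chains differ from each other was not tested.

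Within the groups the 3 chains varied from array to array with little in common. After the group means were removed, Pearson's r over the 10 arrays was 0.21 between C1qa and C1qb, 0.30 between C1qb and C1qc and -0.05 between C1qa and C1qc. These are descriptions over few arrays, which all 3 chains share. GATA-4 array 3 was the lowest of the GATA-4 arrays for each chain and also for Serping1, while the highest was array 5 for C1qa and C1qb and array 1 for C1qc.

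Promoter sequence was at hand in the RefSeq table (GRCr8) for 3 of the 7 genes, C1qa, C1qb and C3, and is shown because GATA-4 is a DNA-binding factor and all 3 genes had a positive difference, that of C1qb past the threshold. The 250 bases before each start are given 5′ to 3′ on the strand of the gene. Capitals mark matches on either strand to an NF-kB type motif, GGGNNNNNCC, or an interferon gamma (GAS) type motif, TTCNNNGAA.
C1qb, chr5:154407828-154408077, minus strand: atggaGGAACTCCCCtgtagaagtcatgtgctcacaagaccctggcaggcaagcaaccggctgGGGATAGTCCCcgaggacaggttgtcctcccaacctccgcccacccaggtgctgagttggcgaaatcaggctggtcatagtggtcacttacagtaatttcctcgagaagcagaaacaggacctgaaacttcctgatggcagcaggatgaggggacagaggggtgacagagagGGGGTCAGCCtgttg
C1qa, chr5:154419934-154420183, minus strand: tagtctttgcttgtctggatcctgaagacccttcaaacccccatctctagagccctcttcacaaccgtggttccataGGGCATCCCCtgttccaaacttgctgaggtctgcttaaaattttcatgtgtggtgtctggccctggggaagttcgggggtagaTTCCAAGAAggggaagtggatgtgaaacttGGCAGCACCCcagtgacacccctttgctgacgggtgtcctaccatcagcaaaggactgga
C3, chr9:2201340-2201589, minus strand: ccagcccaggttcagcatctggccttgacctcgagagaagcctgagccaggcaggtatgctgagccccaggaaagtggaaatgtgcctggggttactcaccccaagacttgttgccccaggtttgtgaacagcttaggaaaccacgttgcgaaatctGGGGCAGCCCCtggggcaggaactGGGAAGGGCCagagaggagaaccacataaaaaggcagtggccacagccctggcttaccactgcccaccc
The GATA core, searched on both strands as GATA with A or T before it and A or G after it, had no match in any of the 3 windows, and 27.0% of the 33469 promoters in the table hold one in the same 250 bases. The NF-kB type motif had 4 matches in C1qb, 2 in C1qa and 3 in C3, of which 2 in C1qb and 2 in C3 overlap each other by all but 1 base, and 42.3% of all promoters hold it. The GAS type motif matched once, in C1qa, and is held by 7.67% of all promoters. An interferon response type motif, GAAANNGAAA, matched none of the 3 and is held by 3.41%. A match is only a run of letters, and the absence of one speaks of this window alone.

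C1s, a protease that travels with C1q, read 11.30, 11.85, 11.64, 11.75 and 11.54 with GATA-4, against 11.60, 11.76, 11.73, 11.55 and 11.77 with LacZ. The LacZ values lay inside the range of the GATA-4 values, and the lowest of all was that of GATA-4 array 1. The difference of -0.07 (SE 0.09) did not pass (adjusted p = 0.727 in limma), and its 95% interval ran from -0.27 to 0.14. Without GATA-4 array 1 the difference was 0.01. C1r, its neighbour in the genome and partner in the C1 complex, had a difference of 0.05 with an interval of -0.18 to 0.28 (adjusted p = 0.825 in limma).

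C3, the component on which the pathways meet, had the widest difference of the 7 genes. It read 8.54, 9.26, 8.69, 9.28 and 8.65 with GATA-4, against 8.58, 8.28, 7.77, 7.80 and 8.61 with LacZ. GATA-4 arrays 2 to 5 lay above every LacZ array, whereas GATA-4 array 1 fell just below LacZ arrays 1 and 5. The spread was wide in both groups, the GATA-4 arrays averaging 8.88 ± 0.36 and the LacZ arrays 8.21 ± 0.41 (SD, n = 5 each). The difference of 0.68 (SE 0.21), or 1.6-fold, did not pass (adjusted p = 0.0762 in limma, exact permutation p = 0.0317), with an interval of 0.23 to 1.12. It was called without GATA-4 array 1, at 0.77 and an adjusted p of 0.0252 in limma.

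Serping1, the C1 inhibitor, read 12.44, 12.54, 12.26, 12.55 and 12.36 with GATA-4, against 12.18, 12.34, 12.17, 12.21 and 12.20 with LacZ. GATA-4 array 3 and LacZ array 2 overlapped, and the other GATA-4 arrays lay above all LacZ arrays. The difference of 0.21 (SE 0.06), or 1.16-fold, had an adjusted p of 0.0702 in limma and an interval of 0.08 to 0.35. Under median centring it was 0.12, with an adjusted p of 0.502, and under median centring without GATA-4 array 1 it was 0.059 (adjusted p = 0.669).

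Clu was read by 2 probe sets that lie far apart in brightness. The brighter one read 13.42, 13.37, 13.49, 13.46 and 13.53 with GATA-4, against 13.28, 13.33, 13.20, 13.32 and 13.34 with LacZ. All GATA-4 arrays lay above all LacZ arrays, as 3.70% of all tested probe sets did, 8.30% being free of overlap in either direction. The rise of 0.16 (SE 0.04) had a limma adjusted p of 0.0467 and an exact permutation p of 0.00794, the smallest possible, but was 0.08 under median centring (adjusted p = 0.766) and -0.056 under median centring without GATA-4 array 1. In mean signal this probe set ranked at percentile 99.9 of the array, and the brightest 10% of probe sets had a median difference of -0.04 after quantile normalization and -0.13 under median centring. The dimmer probe set read 7.05, 5.50, 5.83, 6.09 and 5.24 with GATA-4, against 5.46, 5.55, 5.27, 6.43 and 5.94 with LacZ. It overlapped widely, with GATA-4 array 1 the highest of the 10, and its difference of 0.21 (SE 0.32) did not pass (adjusted p = 0.742 in limma).

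**Figure D2:**
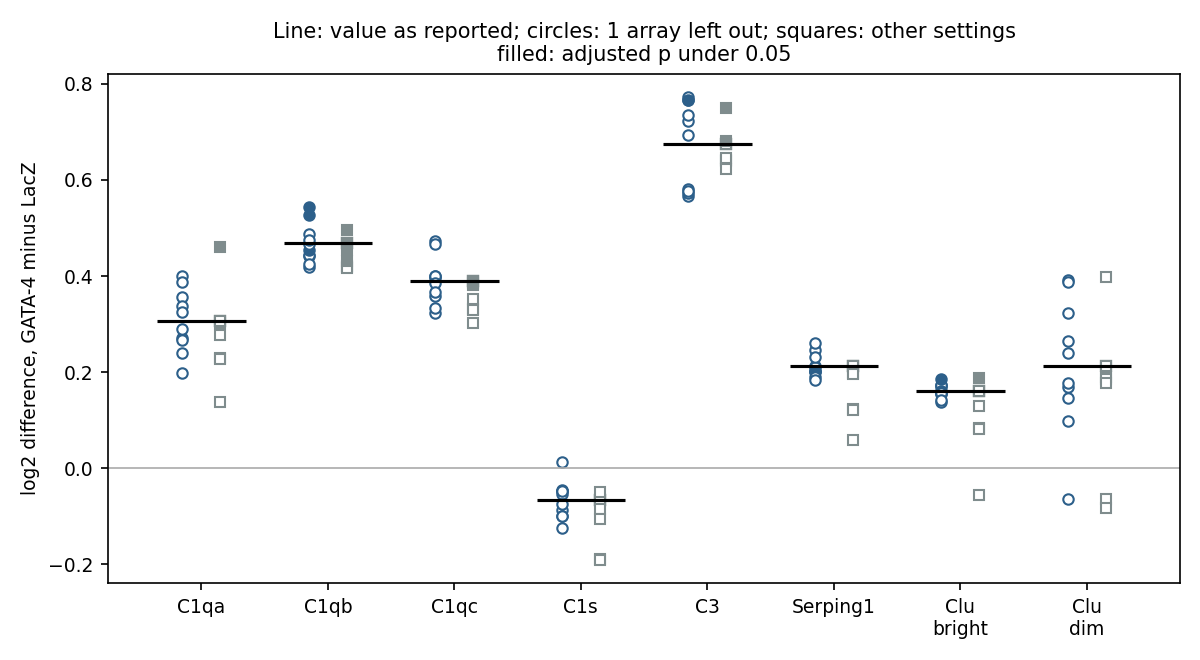
Log2 difference, GATA-4 minus LacZ (vertical axis), of each complement probe set under the fit described (line), with each array left out in turn (circles) and under the other settings (squares), filled where the adjusted p lay under 0.05. C1qa, C1qb, C1qc, C3 and Serping1 stay above 0 throughout, while C1s, the brighter Clu probe set (lowest value -0.056) and the dimmer Clu probe set (lowest -0.08) cross it.

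Array by array, most of the 8 probe sets lay above the highest LacZ array on GATA-4 arrays 1, 2, 4 and 5 and not on array 3. Of the 8, 5 lay above the highest LacZ array on GATA-4 array 1, 6 on each of arrays 2, 4 and 5, and 2 on array 3. C1qb, C1qc, C3, Serping1 and the brighter Clu probe set were above on each of arrays 2, 4 and 5. Above the LacZ mean lay 7, 7, 6, 8 and 6 of the 8 on GATA-4 arrays 1 to 5. The matching shares of all probe sets were not counted for single arrays, so these counts only describe the members. GATA-4 array 1, the dim one, was thus not low across the complement genes: it was the highest of the GATA-4 arrays in C1qc and the lowest in C3 and C1s.

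The rest of the pathway was read from a list of 45 further genes, of which 35 are named on the array and 23 passed the filter. Of these 23, Fcnb rose and none fell, against 6.37% changed among all 10688 genes, and the median difference was 0.08. At an unadjusted p under 0.05 in limma, 8 were higher and 5 lower with GATA-4, where 12.0% of all genes were higher and 12.2% lower. The arrays of the groups were apart in 2 of the 23, Itgb2 higher and Masp2 lower, where 9.66% of all genes lacked overlap and 4.56% had GATA-4 above. Without GATA-4 array 1 the count changed over all 18625 probe sets was 2849. Among the 23 it was then 8, with 5 higher and 3 lower. The higher ones were Fcnb, C3ar1 (adjusted p = 0.0147), C5ar1 (0.0148), Cd59b (0.00114) and C6 (0.0364), and the lower ones Vtn (0.00286), Masp1 (0.00775) and Colec11 (0.0219). Fcnb encodes ficolin-B, a pattern recognition protein of myeloid cells that starts the lectin pathway. It read 8.14, 9.13, 9.46, 8.71 and 8.63 with GATA-4, against 7.69, 7.61, 6.80, 7.93 and 8.29 with LacZ. Only GATA-4 array 1 overlapped with LacZ, through LacZ array 5. The rise of 1.15 (SE 0.27), or 2.22-fold, had an adjusted p of 0.0315 in limma and was lost without any 1 of LacZ arrays 1 to 4 or GATA-4 arrays 2 to 5 (0.00568 to 0.0817 over all 10 omissions).

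Other starters of the lectin pathway did not pass and differed in sign. Fcna, the other ficolin, differed by 0.11 (adjusted p = 0.731 in limma). The collectin Colec11 differed by -0.57 (adjusted p = 0.0758 in limma), and the associated proteases Masp1 and Masp2 by -0.35 and -0.39 (adjusted p = 0.108 and 0.222). Another tested Masp1 probe set pointed the other way, at 0.38. Masp2 read 6.14, 7.19, 6.97, 7.15 and 7.01 with GATA-4, against 7.30, 7.24, 7.40, 7.23 and 7.27 with LacZ, so the groups did not overlap although GATA-4 array 1 lay far below the rest. Cfd, factor D, the protease that activates factor B, differed by 0.01 with an interval of -0.38 to 0.39.

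The receptors of the C3a and C5a peptides and 3 leukocyte receptor subunits had positive differences of moderate size, none past the threshold. C3ar1, the receptor of the C3a peptide, read 6.71, 7.13, 7.39, 7.32 and 6.92 with GATA-4, against 6.44, 6.79, 6.52, 6.66 and 6.76 with LacZ, and differed by 0.46 (SE 0.15; adjusted p = 0.094 in limma). C5ar1, the receptor of C5a, read 8.77, 9.30, 9.30, 9.12 and 8.93 with GATA-4, against 8.78, 8.91, 8.55, 8.61 and 8.74 with LacZ, and differed by 0.36 (SE 0.12; adjusted p = 0.108 in limma). In both, GATA-4 array 1 alone lay within the LacZ range. The subunits of the leukocyte complement receptors Itgb2, Itgax and Itgam differed by 0.39, 0.55 and 0.63, with adjusted p-values in limma of 0.101, 0.0955 and 0.15, and Itgb2 had groups that did not overlap. Of the other genes counted as receptors, C1qbp differed by -0.17 and Cd93 by 0.08 (adjusted p = 0.123 and 0.661 in limma). A dimmer probe set of Cd93 differed by -0.15.

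Among the brakes on the cell surface, Cd59b, which blocks the membrane attack complex, differed by 0.31 (adjusted p = 0.0993 in limma). GATA-4 array 1 read 11.70 and its 4 group mates 12.18 to 12.34, against 11.74 to 11.93 with LacZ, so GATA-4 array 1 was the lowest of all and the other GATA-4 arrays the highest. Cr1l, the rodent regulator Crry, and Cd55, which dissociates the C3-cleaving enzymes, differed by 0.09 and -0.16 and did not pass (adjusted p = 0.445 and 0.711 in limma). A dimmer probe set of Cr1l differed by -0.17 and another of Cd55 by 0.07. Cfi, the protease that inactivates C3b, was too dim to be tested, the GATA-4 group averaging 4.15 ± 0.31 and the LacZ group 2.95 ± 0.69 (SD, n = 5 each). Of the terminal components C6 differed by 0.65 (adjusted p = 0.145 in limma), and C5, C8a, C8b and C9 were too dim to be tested.

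**Figure D3:**
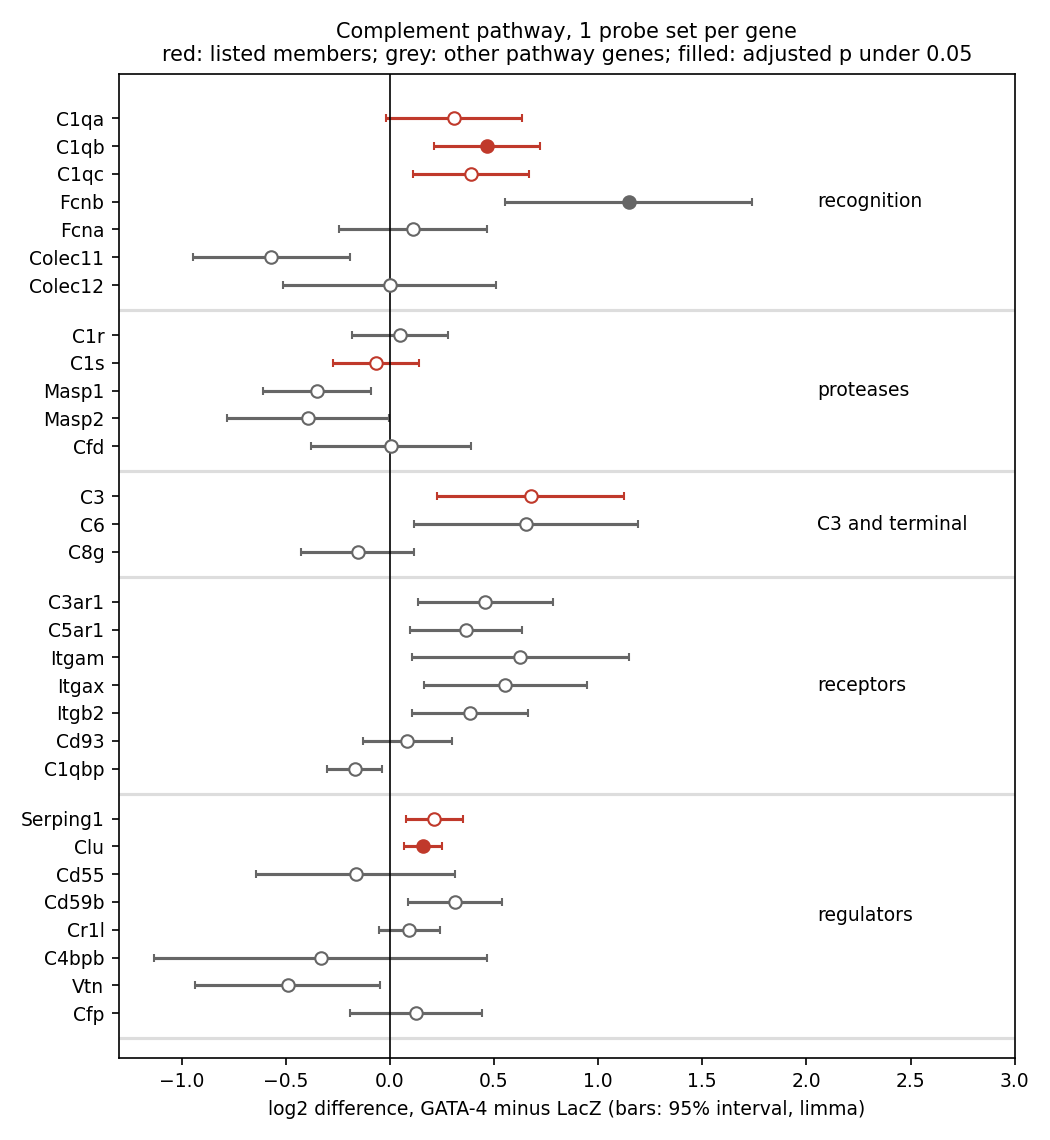
Log2 difference, GATA-4 minus LacZ, with its 95% interval in limma (horizontal axis) for 7 listed complement genes (red) and the 23 other tested genes of the pathway (grey), grouped by role, 1 probe set per gene. Filled points, those of C1qb, Clu and Fcnb, have an adjusted p under 0.05, and the Clu point is -0.056 under median centring without GATA-4 array 1.

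Markers of the cells that make C1q moved with the same contrast. Of 26 macrophage markers tested 10 rose and none fell, against 3.71% of all genes that rose and 2.66% that fell, and their median difference was 0.52. Their summed normalized signal was 41687 to 57451 with GATA-4, against 34277 to 40003 with LacZ. Of the defining markers Csf1r rose by 0.54 and Cd68 by 0.69, with adjusted p-values of 0.00819 and 0.014 in limma, and none of the 26 was at 0. Tyrobp, a signalling adaptor of myeloid receptors, rose by 1.24 (adjusted p = 0.00074) and the endotoxin co-receptor Cd14 by 0.86 (0.0136). Other markers barely differed: Adgre1 by 0.06, Lyve1 by 0.06, Cd74 by 0.03 and Trem2 by -0.13 (adjusted p from 0.717 to 0.884 in limma). Of the 26 differences 25 were positive. In tissue RNA, more cells of a type and more RNA per cell cannot be told apart. The mean log2 signal of the 3 C1q chains minus that of the 26 markers was 0.46, -0.36, -0.63, -0.09 and 0.24 on GATA-4 arrays 1 to 5, and lay between -0.05 and 0.09 on the LacZ arrays. The C1q chains thus kept a near constant distance from the markers across the LacZ arrays. On the GATA-4 arrays the distance was spread more widely, from -0.63 to 0.46. Its level depends on the probe sets chosen, so its sign has no meaning by itself. The upper end was that of the dim GATA-4 array 1, and the next highest was 0.24. GATA-4 array 3 combined the highest marker mean, 10.15, with the lowest C1q mean of its group, 9.52, and GATA-4 array 1 the lowest marker mean of its group, 9.41, with a C1q mean of 9.87. That marker mean lay inside the LacZ range of 9.21 to 9.50. The part of the macrophage markers in the C1q differences was not tested.

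**Figure D4:**
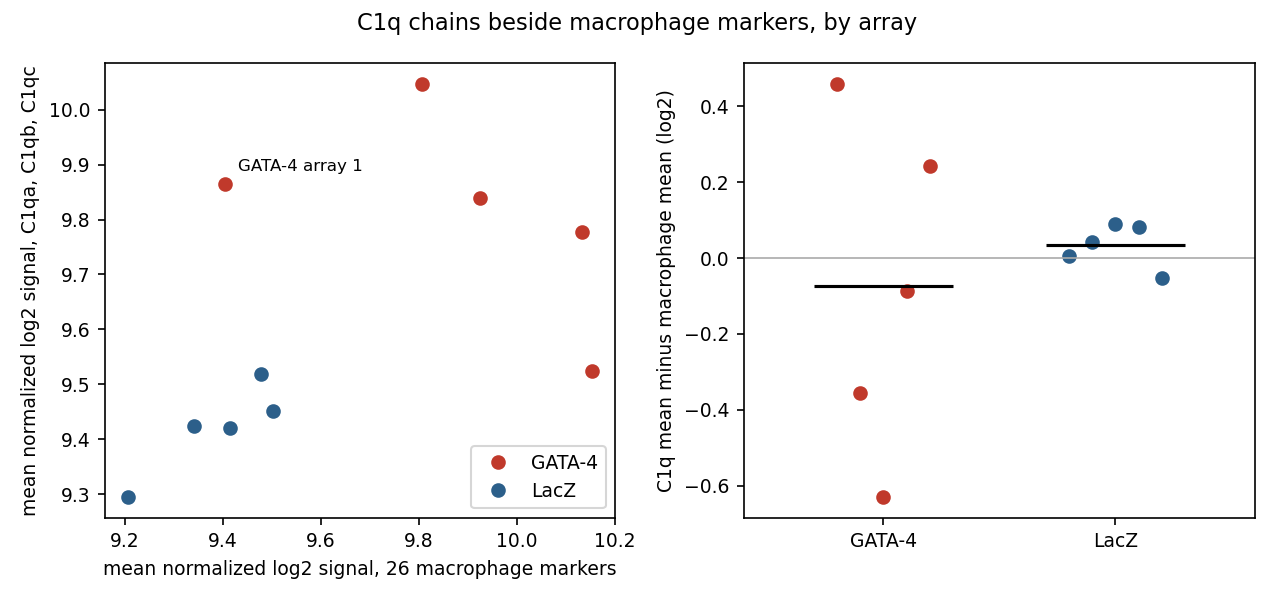
Left, the mean normalized log2 signal of C1qa, C1qb and C1qc against that of 26 macrophage markers, 1 point per array. Right, the C1q mean minus the marker mean (log2) by group with group means as lines, spread from -0.63 to 0.46 on the GATA-4 arrays and from -0.05 to 0.09 on the LacZ arrays.

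Other cell types were followed with the same kind of list, where 3.71% of all genes rose and 2.66% fell. Neutrophil markers rose in 3 of 5 tested genes (Lcn2, Csf3r and Il1r2), with a summed signal of 2633 to 8392 with GATA-4 and 1684 to 3164 with LacZ. S100a8 and S100a9 differed by 1.42 and 1.21 and did not pass (adjusted p = 0.212 and 0.387 in limma). Their SDs within groups were 1.04 to 1.93. Fibroblasts are a further source of C1s, C3 and Serping1, and of 11 fibroblast markers Dpt fell by 0.31 and none rose by its brightest probe set, the sums being 41835 to 50571 with GATA-4 and 44146 to 48179 with LacZ. Col1a1, a chain of collagen I, differed by 0.26 by its brightest probe set (adjusted p = 0.0571) and rose by 0.50 by another (adjusted p = 0.0297 in limma), with groups that did not overlap. Of 8 endothelial markers none passed in limma (0 higher and 2 lower at an unadjusted p under 0.05, Emcn at -0.34 with groups that did not overlap), the sums being 6526 to 8495 with GATA-4 and 7694 to 8330 with LacZ. Of 10 heart muscle markers Ttn fell by 0.27, and the sums were 107244 to 109783 with GATA-4 and 108902 to 111845 with LacZ. Of 3 tested mesothelial markers Krt18 read 7.28 with GATA-4 and 3.54 with LacZ and passed the filter only through the GATA-4 arrays, Wt1 differed by -0.51 (adjusted p = 0.108 in limma) and Lrrn4 by -0.22 (0.591). Msln was too dim to be tested, and the sums of the 3 were 324 to 539 with GATA-4 and 285 to 369 with LacZ. The liver markers Alb, at 3.28 with GATA-4 and 3.90 with LacZ, and Apoa1, at 1.66 and 1.44, were below the filter. In mean signal they ranked at percentiles 22.8 and 5.1, and Apoa1 was at the floor of 0 on GATA-4 arrays 1 and 5. Of the liver list only Ttr was tested, at -0.22 (adjusted p = 0.245 in limma). The part of the other cell types in the complement differences was not tested.

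Interferon gamma and the cytokines of the acute phase are known to raise complement genes in many cells. Of 12 tested genes of the interferon gamma axis 5 rose and 0 fell, where 3.71% of all genes rose and 2.66% fell. The median was 0.36, and all 12 differences were positive. Stat2 rose by 0.64, Irf8 by 0.63 and Gbp2 by 0.83 (adjusted p from 0.0091 to 0.0137 in limma). Ciita, Cxcl11, Irf1 and Cxcl9 differed by 0.41, 0.31, 0.27 and 0.03 and did not pass (adjusted p from 0.139 to 0.902 in limma). Ifng itself was too dim to be tested. The summed signal of the 12 was 14102 to 18811 with GATA-4 and 10711 to 12653 with LacZ. Of 13 tested acute phase and IL-6 pathway genes Lcn2 and Il1b rose, by 1.32 and 0.94, and 0 fell, the median being 0.36 and the summed signal 6481 to 11256 with GATA-4 and 4784 to 6226 with LacZ. Lcn2 stands in the neutrophil list too. Il6 had the widest difference of the 13, at 2.13, and did not pass (adjusted p = 0.104 in limma). Its SDs were 1.44 with GATA-4 and 1.41 with LacZ. Of the 13 differences 11 were positive. Among plasma proteins short of the threshold were Serpina3n at 0.83, A2m at 0.47, Hp at 0.45 and Orm1 at 0.22. Cp, also short of it, was at -0.01 by its brightest probe set and 0.58 by its dimmest. The part of these pathways in the complement differences was not tested.

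The genes whose array-to-array pattern was most like that of the C1q chains, by Pearson's r over the 10 arrays after removal of the group means, were Ptprk and Col5a3 (r = 0.90 each), P2rx5 (0.88), Whamm (0.88) and Klhl21 (0.87). For C3 they were Tspan5 (0.94), Crybg3 (0.91), P4ha3 (0.90), Ccr2 (0.88) and Tmtc3 (0.88). These are the highest of 10681 genes ranked over 10 arrays and stand as a description. None of the 5 nearest to the C1q mean is in the macrophage list, and 1 of the 5 nearest to C3, Ccr2, is.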

How the data were processed

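Intensities per probe set were deposited by the authors as 1 table of 10 columns on a linear scale, and the submitters' processing notes name GCOS (Affymetrix software). No source used here states its version, summary method, scaling or detection calls. Groups follow the source label, since every title names GATA-4. Replicate numbers only name arrays. From these values log2 was taken, quantile normalized over 31042 probe sets that are not controls (57 are) and floored at 0. Probe sets with a mean above the 40th percentile were fitted with limma 3.58.1 in R 4.3.3 (eBayes with trend, no covariates), two-sided, adjusted by Benjamini-Hochberg over all 18625. Genes were named through GEO's platform annotation, updated by gene ID from RefSeq (GRCr8). For lists the brightest probe set stands for its gene. The fit was tested on simulated data.

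The members, the lists and the alternatives were chosen with earlier results of these data known. Named are all members, wider pathway genes past the threshold or fixed for their role, the changed genes of lowest p (up to 3) and the defining markers of other lists, and the 5 genes nearest in pattern. Emcn, Fcna, Vtn, Col1a1, Wt1, Lrrn4, Ttr, Hp, Orm1, Cp, Itgb2, Itgax, Itgam, Colec11, Masp1, Masp2, C6 and the heart muscle genes were named after their values were seen. So were Adgre1, Lyve1, Cd74, Trem2, C1qbp, Cd93, Ciita, Cxcl11, Irf1, Cxcl9, Ifng, S100a8, S100a9, Il6, Serpina3n and A2m. The protein comparison of the C1q chains was not run. The number of arrays limits the precision.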

Additional observations from a re-analysis of the deposited data

Results flagged for a closer look

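In 16 groups of 5 arrays, 8 probe sets in each of 2 groups, 1 value lay far from the other 4 of its group by Dixon's ratio. It was Serping1 on LacZ array 2, at a log2 signal of 12.34, where the nearest LacZ array read 12.21 (gap over range 0.728). Chance alone marks about 1 group in 20.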

How the results depend on the processing

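Against 2 complement probe sets changed in the fit as reported, limma called 0 in the values as deposited, under median centring, with no filter, without the trend and without GATA-4 arrays 4 and 5 (0, 3, 5, 4 and 4 at an unadjusted p under 0.05), 1 with robust limma, 6 with array weights and 0 to 4 when 1 array was left out. The brighter Clu probe set reversed to -0.056 under median centring without GATA-4 array 1. For the wider pathway, against 1 gene, the count was 0 in the values as deposited, with no filter, without the trend and without GATA-4 arrays 4 and 5 (3, 13, 11 and 10 at an unadjusted p under 0.05), 8 with array weights, 8 under median centring without GATA-4 array 1, and 0 to 8 with 1 array left out. Against 10 macrophage markers it was 0 in the values as deposited (5 at an unadjusted p under 0.05), 4 under median centring, 5 without the trend, 5 without GATA-4 arrays 4 and 5, 21 with array weights, 19 under median centring without GATA-4 array 1 and 3 to 22 with 1 array left out. Over all probe sets, against 988, limma called 9 in the values as deposited, 619 with no filter, 539 without the trend, 201 without GATA-4 arrays 4 and 5, 2890 with array weights, 2616 under median centring without GATA-4 array 1 and 174 to 2849 with 1 array left out. The causes were not tested. The other settings tried, 16 added to every signal, a floor at the 20th percentile and a filter at the 60th percentile, kept C1qb and Clu as the 2 called. Median centring without GATA-4 array 1 also called 2, C1qb and C3. C1qa, C1qb, C1qc, C3 and Serping1 kept a positive difference under each of the 21 alternatives. No paired analysis was possible because the labels give the groups no shared replicate numbers. Probe sets near background, such as the dimmer Clu one, limit what can be read.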
